A study of Mus musculus with 5 samples.

Results

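The Siglec genes of the mouse, 7 of the 55573 genes in the count tables, were followed in the right hemisphere of brains that carried a GL261 glioma. They were Siglec1, Cd33, Siglece, Siglecf, Siglecg, Siglech and Cd22, matched by symbol to their Ensembl identifiers, and each of the 7 was found once and had enough reads to be tested. C57BL/6 females aged 7 to 8 weeks had received GL261 cells, a mouse glioma line with a luciferase/mKate2 vector, in the right caudate nucleus-putamen. On days 21 and 24 they received either vehicle, the inVivoPure pH 6.5 Dilution Buffer, or UMBO, the opening of the blood-brain barrier with pulsed ultrasound and circulating microbubbles. The hemisphere was taken 24 h after the last session, and its bulk RNA was sequenced from 3 vehicle and 2 UMBO mice. GL261 is a single transplanted line, and the vehicle mice carried the same tumor cells. The study describes 3 mice per group, so 1 UMBO mouse was not analysed here.

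Siglecs are surface receptors that bind sialic acids, the acidic sugars at the tips of the glycans on most vertebrate cells. Many of them carry inhibitory tail motifs that recruit the phosphatases SHP-1 and SHP-2 after phosphorylation by Src family kinases, and so restrain the immune cell that carries them. Others lack such a tail and signal through the activating adaptor DAP12, encoded by Tyrobp. In the brain they are known from microglia, border macrophages and infiltrating leukocytes, except for the myelin-associated glycoprotein Mag, which belongs to oligodendrocytes.

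The libraries held between 59736771 and 86164159 counted reads, and levels are given as CPM, counts scaled to a common library size after TMM normalization in edgeR. UMBO replicate 2 stood apart from the other libraries in several marker lists. Its summed level of 10 proliferation genes was 493 CPM against 38.6 to 122 in the other 4 libraries, and its summed level of 10 neuronal genes was 3571 CPM against 6538 to 10099. The log2 fold changes without UMBO replicate 2 are therefore given beside those over all 5 libraries. Vehicle replicate 1 had the highest neuronal sum, 10099 CPM, against 7050 and 6538 CPM in vehicle replicates 2 and 3. The part that cell composition had in any result was not tested, and in bulk tissue a change in the number of cells that carry a receptor cannot be told apart from a change in RNA per cell.

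Levels of the 7 Siglec genes were on average higher with UMBO than with vehicle, from a log2 fold change of 0.24 for Cd33 to 1.60 for Cd22, and none of the differences passed the adjusted threshold. The share of all 23592 tested genes with a log2 fold change above 0 was 50.9%. The median of the 7 genes was 0.97, against 0.01 over all tested genes. The lowest level of all 7 genes lay in vehicle replicate 1. The highest level lay in UMBO replicate 2 for 5 genes and in UMBO replicate 1 for Cd33 and Siglech.

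With edgeR's quasi-likelihood test and Benjamini-Hochberg adjustment, 0 of 7 Siglec genes and 0% of all tested genes had an adjusted p under 0.05, and the smallest adjusted p of any gene was 0.497. At an unadjusted p under 0.05, 1 Siglec gene, Cd22, was higher with UMBO, where 5.3% of all tested genes were, and no Siglec gene was lower, where 2.06% were. The DESeq2 Wald test also called 0 of 7 after adjustment, against 0.179% of the genes it tested, and 1 of 7 before it. The UMBO libraries were both higher than any vehicle library for 3 Siglec genes, Siglec1, Siglecf and Siglech, a pattern that 11.5% of all tested genes had. Both lay below every vehicle library for none of the 7, against 11.4% of all tested genes. Over 3 against 2 libraries there are 10 groupings, and no p of an exact permutation test can be smaller than 0.1. The 2-sided exact p of the Siglec genes lay between 0.2 and 0.5. Without vehicle replicates 1, 2 and 3 in turn the median of the 7 log2 fold changes was 0.66, 1.45 and 0.70. It was 1.19 without UMBO replicate 1 and 0.52 without UMBO replicate 2.

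**Figure D1:**
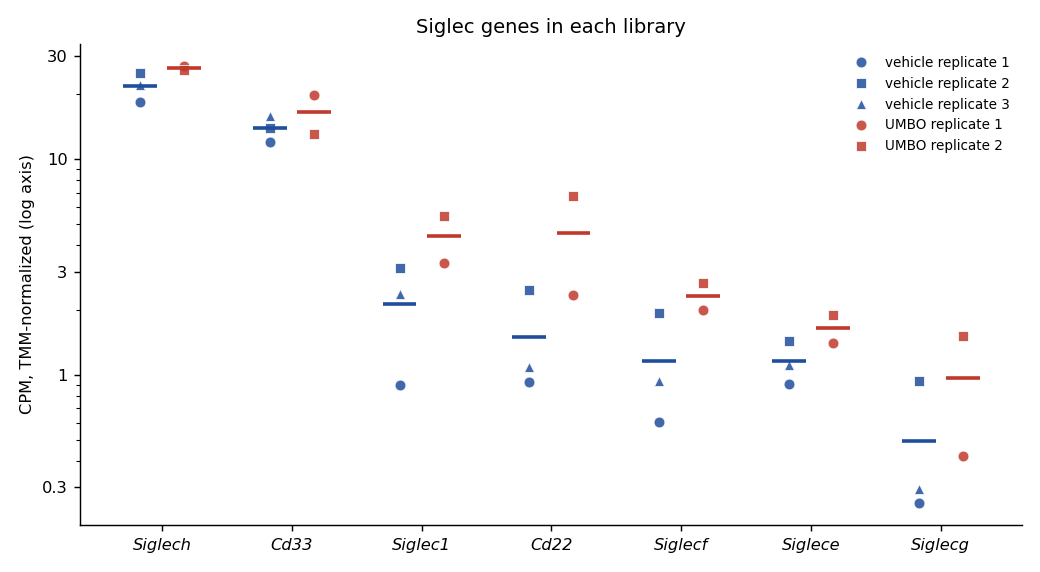
Level of each Siglec gene in each library, as TMM-normalized CPM on a log axis, with vehicle libraries in blue, UMBO libraries in red, the marker shape giving the replicate number and the bar the group mean. Vehicle replicate 1 is the lowest point of every gene, and the 5 genes other than Siglech and Cd33 lie between 0.254 and 6.72 CPM.

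Siglech encodes a receptor without an inhibitory tail that pairs with DAP12, and it is known as a marker of microglia and plasmacytoid dendritic cells. The gene lies at chr7:55768178-55778925 on the plus strand of GRCm38, about 12108 kb from Siglece, the nearest of the other Siglec genes. Its level was 18.4, 25.2 and 22.2 CPM in vehicle replicates 1 to 3, and 27.1 and 26.0 CPM in UMBO replicates 1 and 2. Both UMBO libraries lay above the highest vehicle library, by less than the distance between the vehicle libraries themselves. The 95% Poisson intervals of UMBO replicate 2, 24.8 to 27.3 CPM, and vehicle replicate 2, 24.0 to 26.4 CPM, overlapped, and such intervals cover counting error only. The group means were 21.9 ± 3.43 CPM (SD, n = 3) and 26.6 ± 0.778 CPM (SD, n = 2). The log2 fold change was 0.28 (SE 0.195, 95% interval -0.20 to 0.75, adjusted p = 0.510 with edgeR), and it was 0.31 without UMBO replicate 2. Leaving out vehicle replicate 1, the lowest library, gave 0.16, and leaving out UMBO replicate 1 gave 0.22. The highest such value was 0.41, with vehicle replicate 2 left out. Siglech was the most even of the 7 genes, with 1.48-fold between its highest and lowest library.

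The summed level of 10 microglial marker genes was 349 to 498 CPM in the vehicle libraries and 678 and 815 CPM in the UMBO libraries. In 7 of these 10 markers both UMBO libraries exceeded the vehicle libraries, against 11.5% of all tested genes. P2ry12, a purinergic receptor of resting microglia, was not among the 7 and stood at a log2 fold change of -0.05, or 0.47 without UMBO replicate 2. Per 1000 CPM of these markers Siglech held 52.7, 50.7 and 52.8 CPM in the vehicle libraries, and 40.0 and 31.9 CPM in the UMBO libraries. On this scale both UMBO libraries lay below every vehicle library, while on the CPM scale both lay above. The same reversal was seen for no other Siglec gene. Siglece also lay lower in both UMBO libraries on the marker scale, with 2.61, 2.89 and 2.64 CPM against 2.07 and 2.32 CPM per 1000 CPM of markers, but overlapped between groups in CPM. The markers of plasmacytoid dendritic cells summed to 4.84 to 7.88 CPM in the vehicle libraries and to 4.36 and 12.8 CPM in the UMBO libraries, so the UMBO libraries lay on either side of the vehicle range. Cox6a2 alone made up 68.7% of this level. Without it the sums were 1.75 to 2.21 CPM with vehicle and 1.49 and 3.86 CPM with UMBO.

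Cd33, Siglece and Siglecf are myeloid members of the CD33-related group and lie close together on chromosome 7 with Siglecg. Cd33 is the member after which the group is named, Siglece is an inhibitory receptor of neutrophils, monocytes and microglia, and Siglecf is best known from eosinophils and alveolar macrophages. On GRCm38, Siglecf lies at chr7:43351341-43359531 and Siglecg at chr7:43408204-43418358 on the plus strand, and Cd33 at chr7:43524216-43544428 and Siglece at chr7:43651070-43660161 on the minus strand. The gaps between these neighbours are 48.7, 105.9 and 106.6 kb. The reads of Cd33, Siglece and Siglecf could be told apart, since no stretch of 101 bases in the longest transcript of any of the 3 recurred in the transcripts of another gene.

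Cd33 stood at 11.995, 13.96 and 15.88 CPM in vehicle replicates 1 to 3, and at 19.95 and 13.04 CPM in UMBO replicates 1 and 2. UMBO replicate 1 was the highest of the 5 libraries and UMBO replicate 2 lay inside the vehicle range, which made Cd33 the one Siglec gene with UMBO replicate 2 below the vehicle mean. Group means were 13.9 ± 1.94 CPM (SD, n = 3) and 16.5 ± 4.88 CPM (SD, n = 2), with a log2 fold change of 0.24 (SE 0.256, 95% interval -0.38 to 0.87, edgeR adjusted p = 0.616). It was 0.52 without UMBO replicate 2 and -0.13 without UMBO replicate 1, so the direction rested on UMBO replicate 1.

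Siglece stood at 0.909, 1.44 and 1.11 CPM with vehicle, and at 1.40 and 1.89 CPM with UMBO. UMBO replicate 1 fell just short of vehicle replicate 2, and UMBO replicate 2 was the highest library. The group means were 1.15 ± 0.267 CPM (SD, n = 3) and 1.65 ± 0.346 CPM (SD, n = 2). The log2 fold change was 0.52 (SE 0.351, 95% interval -0.34 to 1.37, edgeR adjusted p = 0.505), and 0.29 without UMBO replicate 2.

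Siglecf stood at 0.602, 1.93 and 0.933 CPM in the vehicle libraries, and at 1.99 and 2.67 CPM in the UMBO libraries. Both UMBO libraries lay above the vehicle libraries, the lower of them only just above vehicle replicate 2 and within counting error of it, with 95% Poisson intervals of 1.70 to 2.31 and 1.61 to 2.29 CPM. The group means were 1.15 ± 0.691 CPM (SD, n = 3) and 2.33 ± 0.483 CPM (SD, n = 2). The log2 fold change was 1.01 (SE 0.532, 95% interval -0.29 to 2.32, edgeR adjusted p = 0.497), and 0.79 without UMBO replicate 2. It was 0.71 without vehicle replicate 1 and 1.63 without vehicle replicate 2. The 8 eosinophil markers together held 0.548 to 1.14 CPM in the vehicle libraries and 1.61 and 1.79 CPM in the UMBO libraries. Of their granule genes, Prg2, Prg3, Ear1 and Ear6 were at 0 in at least 1 library, while Epx was read in every library and made up 53.2% of the summed level. In CPM, Siglecf exceeded the sum of the whole list in 4 of the 5 libraries.

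Promoter sequences from RefSeq, 250 bases before and 50 bases after each start on GRCm38.p6, were found for 6 of the 7 genes and not for Siglec1. They are shown for Siglecf and Cd33 because their windows shared an unbroken run of 16 bases, in capitals, that 2 of the 32851 promoters of the table held. The run began 27 bases before the start of Siglecf, at chr7:43351281-43351340 for the part shown, and 157 bases before the start of Cd33, at chr7:43533302-43533361 on the minus strand. The RefSeq start of Cd33 used here lies 11.3 kb inside the GENCODE gene, whose outermost transcript starts further upstream.
Siglecf: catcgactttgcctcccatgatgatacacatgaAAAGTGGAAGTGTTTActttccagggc
Cd33: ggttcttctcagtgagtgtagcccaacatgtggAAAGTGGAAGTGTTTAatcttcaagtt

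No other pair of the 6 genes shared more than 10 bases in a run, with Siglecg compared in 1 of its 2 windows. Whether the shared stretch bears on the levels of these genes was not tested. The levels of Siglecf and Cd33, each as log2 CPM around its own mean, differed by a root mean square of 0.74 over the 5 libraries. It was 0.20 for Siglece and Siglech, the closest of the 21 pairs, and 1.04 for Cd33 and Cd22, the farthest. This measure also grows where the genes of a pair differ in spread, and Siglecf varied 4.44-fold over the libraries against 1.66-fold for Cd33.

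The letters GAGGAA, the core bound by the myeloid factor PU.1, were searched on both strands. They occurred in 28.3% of all 32851 promoters. Of the 6 Siglec genes 5 held them, Siglecf, Siglecg, Cd33, Siglece and Siglech. Siglecg had 2 overlapping windows, and its matches lay only in the one further upstream, so this is a count of genes and not of windows. The window of Cd22 held none. The RefSeq start of Cd22 used here lies 1.31 kb inside the GENCODE gene, so its window does not reach the outermost start. Siglece is shown, from base 100 before the start to the start at chr7:43660162-43660261 on the minus strand, because it held 3 matches. They stand in capitals as TTCCTC, the same letters on the other strand.
Siglece: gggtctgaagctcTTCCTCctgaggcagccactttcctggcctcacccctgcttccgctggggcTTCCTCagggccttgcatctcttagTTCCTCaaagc

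The STAT letters TTCNNNGAA occurred in 8.30% of all promoters and, of the 6 genes, in the window of Siglech. The letters of an interferon response element, also searched on both strands, occurred in 3.44% of all promoters and in 0 of the 6 genes. No match overlapped another. A match describes the letters of the window and not the binding of a factor.

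Cd22 and Siglecg are the Siglecs best known from B cells, where CD22 recruits SHP-1 after phosphorylation by Lyn and Siglec-G limits calcium signalling. Cd22 lies at chr7:30865402-30880342 on the minus strand of GRCm38, 18.8 kb from Mag. It stood at 0.923, 2.48 and 1.09 CPM in vehicle replicates 1 to 3, and at 2.35 and 6.72 CPM in UMBO replicates 1 and 2. UMBO replicate 1 lay just below vehicle replicate 2, while UMBO replicate 2 was far above the other 4 libraries. The group means were 1.50 ± 0.854 CPM (SD, n = 3) and 4.53 ± 3.09 CPM (SD, n = 2).

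Cd22 had the largest log2 fold change of the 7 genes, 1.60 (SE 0.618, 95% interval 0.09 to 3.11, edgeR unadjusted p = 0.0413, adjusted p = 0.497), a 3.03-fold difference of the fitted levels. Without UMBO replicate 2 the log2 fold change was 0.66. Without UMBO replicate 1 it was 2.14, with an adjusted p of 0.0422 in a fit where 1 UMBO library was assumed to vary like the vehicle libraries. In that fit 18.3% of all tested genes passed the adjusted threshold. Of the exonic bases of Cd22, 479 (9.50%) overlap the antisense gene Gm29439, and it is not stated whether the counting used strand, so reads of these bases may come from either gene.

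Siglecg was the least abundant of the 7, at 0.254, 0.935 and 0.295 CPM with vehicle, and 0.421 and 1.51 CPM with UMBO. The reads behind these values were 19, 63, 25, 36 and 99. The replicates numbered 2 were the highest of each group, and UMBO replicate 1 lay below vehicle replicate 2. The 95% Poisson interval of the lowest value, 0.153 to 0.397 CPM, overlapped that of UMBO replicate 1, 0.295 to 0.583 CPM. The group means were 0.495 ± 0.382 CPM (SD, n = 3) and 0.966 ± 0.771 CPM (SD, n = 2). The log2 fold change was 0.97 (SE 0.783, 95% interval -0.95 to 2.88, edgeR adjusted p = 0.540), but -0.22 without UMBO replicate 2 and 1.84 without vehicle replicate 2. Of the 101-base stretches of its longest transcript, 2.57% also occur in the gene Gm29791.

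The 10 B cell markers summed to 2.57 to 4.09 CPM in the vehicle libraries and to 3.52 and 8.47 CPM in the UMBO libraries. UMBO replicate 2 was the highest library for this sum and for both Cd22 and Siglecg, while UMBO replicate 1 lay inside the vehicle range for all 3. The vehicle libraries differed in order. The B cell sum was 2.57, 3.26 and 4.09 CPM in vehicle replicates 1 to 3, while Cd22 and Siglecg were highest in vehicle replicate 2. Pax5 stood at 0.374, 0.356 and 2.27 CPM in the same 3 libraries, so the highest place of vehicle replicate 3 rested on this gene. Several of the markers had few reads, for example 2 to 15 for Blk.

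Siglec1 encodes sialoadhesin or CD169, a macrophage receptor with a long chain of immunoglobulin domains and no inhibitory tail motif, known to rise with interferon. It lies at chr2:131069220-131086765 on the minus strand of GRCm38, apart from the other 6 genes. Its level was 0.896, 3.12 and 2.36 CPM in vehicle replicates 1 to 3, and 3.31 and 5.47 CPM in UMBO replicates 1 and 2. Both UMBO libraries lay above the vehicle libraries, and vehicle replicate 1 was well below the rest. The 95% Poisson intervals of UMBO replicate 1, 2.94 to 3.72 CPM, and vehicle replicate 2, 2.71 to 3.57 CPM, overlapped. The group means were 2.12 ± 1.13 CPM (SD, n = 3) and 4.39 ± 1.52 CPM (SD, n = 2). The log2 fold change was 1.05 (SE 0.553, 95% interval -0.31 to 2.40, edgeR adjusted p = 0.497). It was 0.64 without UMBO replicate 2 and 0.68 without vehicle replicate 1.

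The 12 interferon response genes summed to 111 to 436 CPM with vehicle and to 277 and 1033 CPM with UMBO, and in none of the 12 did both UMBO libraries exceed the vehicle libraries. The 8 markers of border macrophages, the perivascular and meningeal macrophages, summed to 13.5 to 21.9 CPM with vehicle and to 24.0 and 42.5 CPM with UMBO. Siglec1 had the same order of the groups as the border macrophage sum, with the UMBO libraries above the vehicle libraries. The microglial, eosinophil, neutrophil and proliferation sums had this order too, so it was not particular to border macrophages. Mrc1, 38.8% of the border macrophage level, overlapped between groups, at 10.3 CPM in vehicle replicate 2 and 9.73 CPM in UMBO replicate 1. The sum without Mrc1 kept the order. The interferon sum in UMBO replicate 1 lay inside the vehicle range. Which cells the Siglec1 reads came from was not tested. Per 1000 CPM of the border macrophage markers Siglec1 held 66.6 to 142 CPM with vehicle and 138 and 129 CPM with UMBO, so on that scale the groups overlapped.

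**Figure D2:**
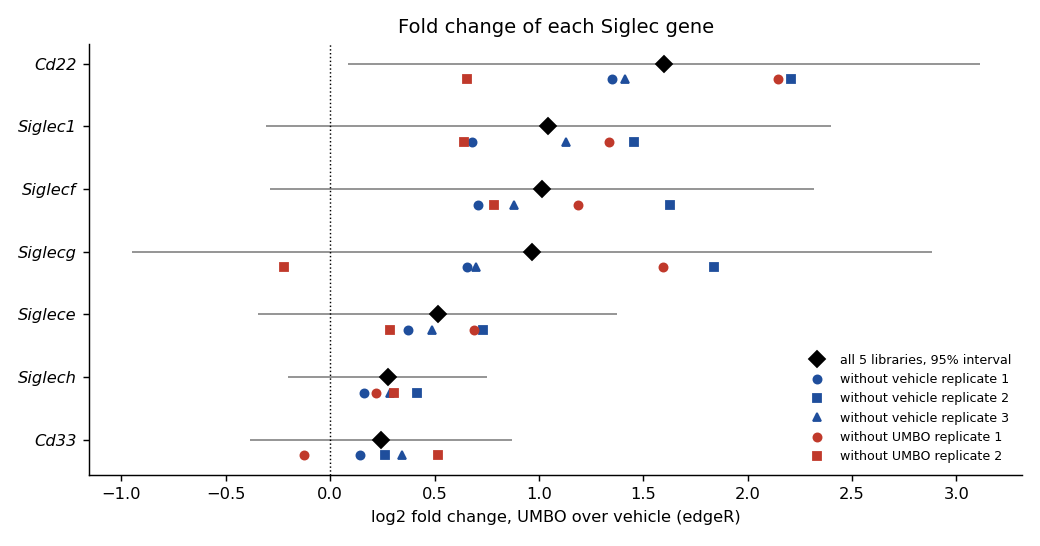
Log2 fold change of each Siglec gene, UMBO over vehicle, from edgeR: the diamond and line give the value over all 5 libraries with its 95% interval, and the smaller symbols the value with 1 library left out. The interval of Cd22 excludes 0 before adjustment, and the points of Cd33 without UMBO replicate 1 and of Siglecg without UMBO replicate 2 lie below 0.

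As for 5 of the Siglec genes, the immune marker lists had their highest sum in UMBO replicate 2. The 10 pan-myeloid markers summed to 309 to 755 CPM with vehicle and to 722 and 1396 CPM with UMBO, and the 6 monocyte markers to 3.66 to 19.6 CPM and to 12.4 and 102 CPM. For both lists UMBO replicate 1 lay inside the vehicle range and UMBO replicate 2 above it. The same held for Cd22, Siglece and Siglecg, whereas Siglec1, Siglecf and Siglech lay above the vehicle range in both UMBO libraries. The 10 neutrophil markers summed to 9.68 to 17.1 CPM with vehicle and to 22.5 and 30.9 CPM with UMBO, but 87.3% of this level came from Csf3r, a cytokine receptor gene. Without it the sums were 0.642 to 2.21 CPM with vehicle and 1.38 and 6.83 CPM with UMBO, so UMBO replicate 1 lay inside the vehicle range, and Ly6g, which defines neutrophils, was at 0 in at least 1 library. The 8 oligodendrocyte markers varied little, from 5336 to 6250 CPM.

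**Figure D3:**
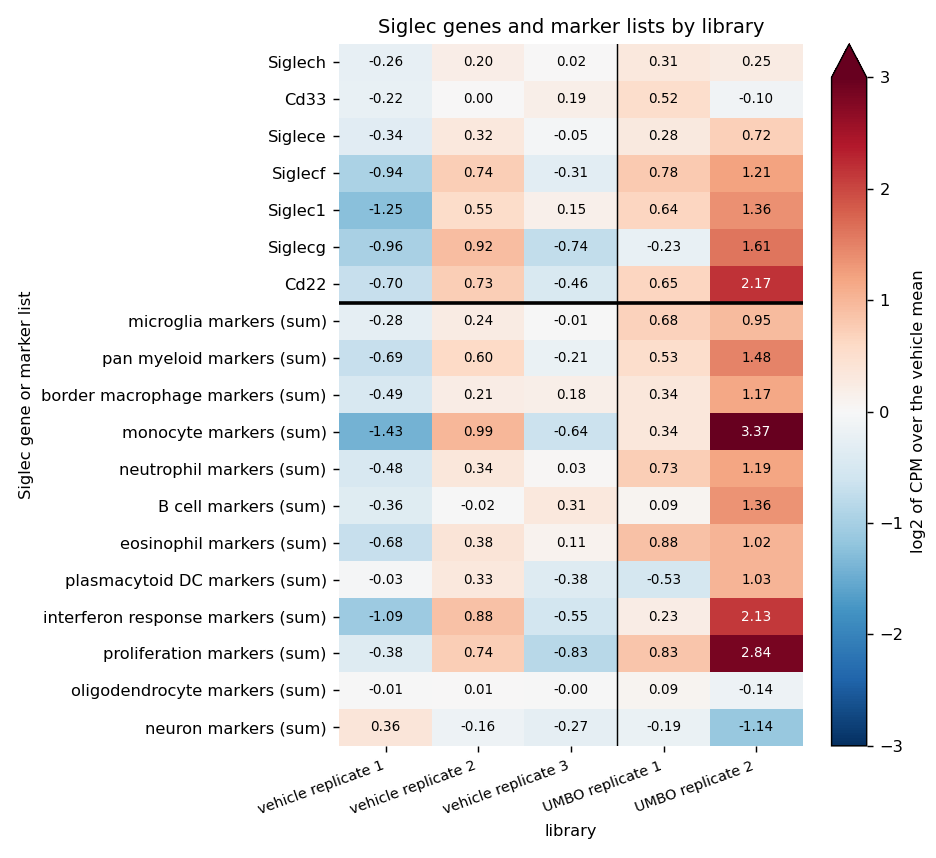
Log2 of the CPM in each library over the mean of the 3 vehicle libraries, for the 7 Siglec genes above the line and for the summed level of each marker list below it, with red above and blue below the vehicle mean. UMBO replicate 2 reaches 2.17 for Cd22 and 3.37 for the monocyte markers, the darkest cell, and vehicle replicate 1 lies below 0 for all 7 Siglec genes.

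Divided by exon length, the Siglec genes ranged from 7.03 CPM per kilobase for Siglech to 0.142 for Siglecg, as means of the 5 libraries. Between them came Cd33 at 1.93, Siglece at 0.731, Siglecf at 0.582, Cd22 at 0.538 and Siglec1 at 0.424 CPM per kilobase. Siglech lay above Cd33 in every library, with 5.43 CPM per kilobase in its lowest library against 2.57 in the highest of Cd33. Cd33 in turn lay above Siglece, with 1.54 against 1.02 CPM per kilobase. All other neighbours in this order had overlapping ranges, so their order was not separated by the spread between libraries, although Siglece exceeded Siglecf and Siglec1 exceeded Siglecg in each of the 5. Cd22 ranked 5 or 6 of the 7 with vehicle and 5 in UMBO replicate 1, but 3 in UMBO replicate 2.

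**Figure D4:**
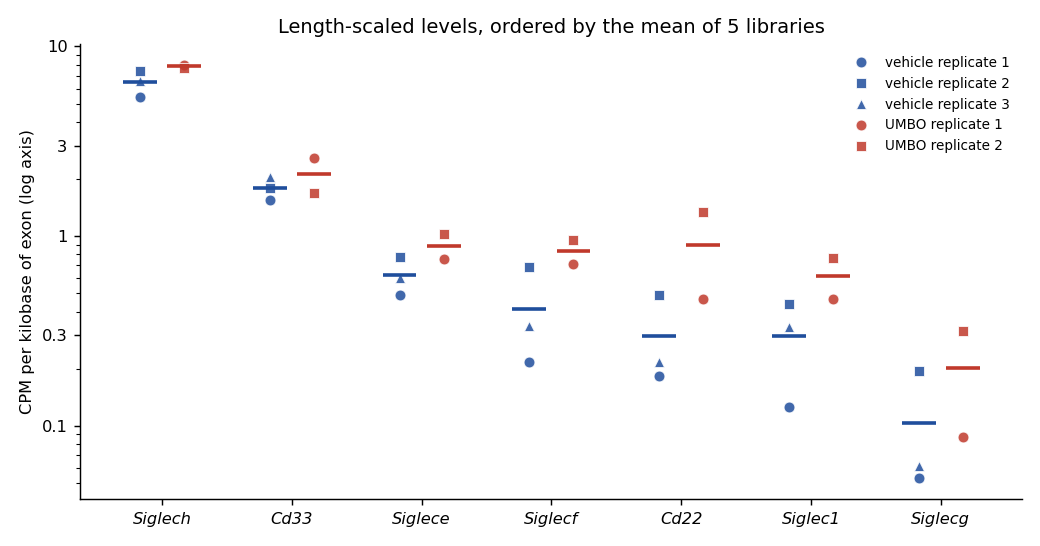
CPM per kilobase of merged exons for each Siglec gene and library on a log axis, ordered by the mean of the 5 libraries, with vehicle in blue, UMBO in red and bars at the group means. Siglech and Cd33 are separated from the genes after them, and Cd22 reaches 1.33 CPM per kilobase in UMBO replicate 2.

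The genes with the most spread over the 5 libraries were Cd22, Siglec1, Siglecg and Siglecf, with 7.28, 6.10, 5.95 and 4.44-fold between the highest and the lowest library. Siglece, Cd33 and Siglech varied by 2.08, 1.66 and 1.48-fold. For 6 of the 7 genes, all but Cd22, the highest and lowest vehicle library differed by more than the fitted difference between the groups, for example 3.68 against 1.95-fold for Siglecg and 3.48 against 2.06-fold for Siglec1.

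For each Siglec gene the other genes with the most similar pattern were sought among 16442 tested genes with a mean of at least 1 CPM, by the root mean square difference of log2 CPM around the gene's own mean over the 5 libraries. The nearest to Cd22 was Ptpn6, the gene of SHP-1, at 0.041, followed by Rcn3 and Rab20. Siglec1 was nearest to Fgl2 at 0.184, then to Hist1h4h and Cd180, and Siglecf to Lif at 0.099, then to Dyrk4 and Mpeg1. Siglecg was nearest to Tmem140 at 0.074, then to Gbp11 and H2-DMa. For the 3 even genes the nearest were Mmd2, Ednra and Mmp28 for Cd33, Tsc22d4 and Ikzf1 for Siglece, and Ackr3, Slc14a2 and Clu for Siglech, at 0.026 to 0.047. With 5 libraries, many genes can share a pattern, and these names are a description.

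The partners that carry Siglec signals were also higher on average. Of the 15 signalling genes 12 had a log2 fold change above 0, against 50.9% of all tested genes, and 7 were higher at an unadjusted p under 0.05, against 5.3%. None passed the adjusted threshold of edgeR, and the median log2 fold change was 1.07, or 0.50 without UMBO replicate 2. Tyrobp, the gene of DAP12, stood at 10.6, 34.3 and 14.4 CPM with vehicle and at 35.6 and 102 CPM with UMBO. Its lower UMBO library was just above vehicle replicate 2, and the log2 fold change was 1.80 (SE 0.626, edgeR unadjusted p = 0.0281, adjusted p = 0.497), or 0.85 without UMBO replicate 2. The log2 fold change of Siglech, which signals through it, was 0.28, and the difference between these values was not tested.

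Ptpn6 stood at 6.77, 18.9 and 8.59 CPM with vehicle and at 17.2 and 50.5 CPM with UMBO, with UMBO replicate 1 inside the vehicle range as for Cd22, and a log2 fold change of 1.57 (SE 0.594), or 0.59 without UMBO replicate 2. Ptpn11, the gene of the widely expressed phosphatase SHP-2, had a log2 fold change of -0.33 (SE 0.249), or -0.07 without that library, and overlapping groups. Inpp5d, the gene of the lipid phosphatase SHIP-1, stood at 0.77 (SE 0.257), or 0.43 without it. The smallest unadjusted p of the list were those of Lyn, the Src family kinase that phosphorylates CD22, with a log2 fold change of 1.18 (SE 0.349, edgeR unadjusted p = 0.0147), and of Blnk, a B cell and myeloid adaptor, with 1.07 (SE 0.345). Without UMBO replicate 2 these were 0.77 and 0.52. Lyn stood at 10.6, 20.4 and 14.0 CPM with vehicle and at 25.4 and 42.6 CPM with UMBO, so both UMBO libraries were above the vehicle range.

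Genes that make the ligands of Siglecs had a lower share of positive values. Of 26 tested genes of sialic acid synthesis and transfer 8 had a log2 fold change above 0 and 18 below it, where 50.9% of all tested genes were above 0. The median was -0.30. Without UMBO replicate 2, 12 of the genes were above 0 and the median was -0.01, so the lean rested largely on that library. St6gal2, an alpha-2,6 sialyltransferase, was the 1 gene of the list with an unadjusted p under 0.05. Its level was 63.7, 32.7 and 45.8 CPM with vehicle and 29.0 and 9.56 CPM with UMBO, with both UMBO libraries below every vehicle library and a log2 fold change of -1.30 (SE 0.526, edgeR adjusted p = 0.497), or -0.70 without UMBO replicate 2. St8sia3, a sialyltransferase of neurons, stood at -0.73 (SE 0.313) and St6galnac4, which acts on O-glycans, at 0.43 (SE 0.191), or at -0.37 and 0.25 without that library. St6gal1, which makes the preferred glycan of CD22, stood at 0.06 (SE 0.187), or 0.24 without it, and is named here after its value was seen. The neuronal markers summed lower in UMBO replicate 2, as given above, and their part in these values was not tested.

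The sialidases, which remove sialic acid, differed in direction. Neu2 had a log2 fold change of -1.12 (SE 0.397, edgeR unadjusted p = 0.0306) and Neu4 one of 0.85 (SE 0.342, edgeR unadjusted p = 0.0467), each with an adjusted p of 0.497. Without UMBO replicate 2 they stood at -1.23 and 1.30, and without UMBO replicate 1 Neu4 stood at 0.18. Neu1, the lysosomal sialidase and the most abundant of the 4 in CPM, stood at 0.14 (SE 0.153), and Neu3, the sialidase of the plasma membrane, stood at -0.29 (SE 0.293), or at 0.10 and -0.11 without UMBO replicate 2. Neu4 stood at 22.2 CPM in UMBO replicate 1 and at 10.4 CPM in UMBO replicate 2, the latter just above the vehicle range of 8.17 to 10.1 CPM.

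All 4 genes of known protein ligands were higher on average, against 50.9% of all tested genes, and 3 of them without UMBO replicate 2. None had an unadjusted p under 0.05. Cd52, the gene of a small leukocyte glycoprotein, had a log2 fold change of 2.05 (SE 0.917), or 0.38 without that library. The leukocyte phosphatase Ptprc, or CD45, a ligand of CD22, stood at 0.83 (SE 0.393), or 0.30 without it. The leukocyte sialomucin Spn, or CD43, stood at 1.01 (SE 0.743) and turned to -0.37 without it. The list median was 0.92, or 0.25 without UMBO replicate 2.

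**Figure D5:**
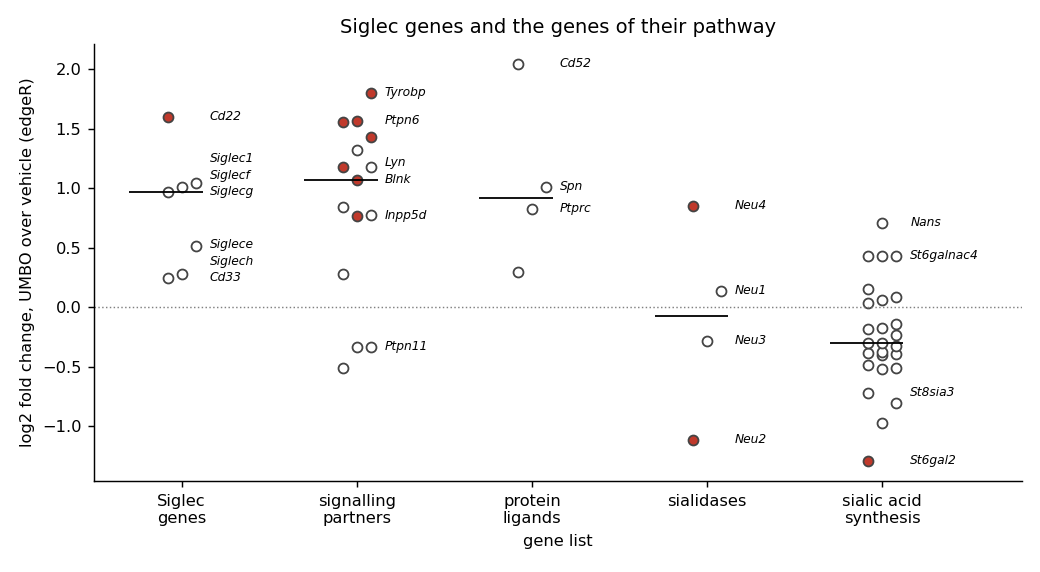
Log2 fold change, UMBO over vehicle, of the Siglec genes and of each tested gene of 4 pathway lists, with filled points for an unadjusted p under 0.05 and a bar at the list median; labels name selected genes. The medians are 0.97 for the Siglec genes, 1.07 for signalling partners, 0.92 for protein ligands, -0.07 for sialidases and -0.30 for sialic acid synthesis.

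Of the Siglec genes outside the 7, Mag, the Siglec of myelin, stood at 197, 231 and 190 CPM with vehicle and at 177 and 225 CPM with UMBO. The groups overlapped, with a log2 fold change of -0.04 (SE 0.217, edgeR adjusted p = 0.937), 0.08 under scaling by library size alone, 0.10 without UMBO replicate 1 and -0.22 without UMBO replicate 2. Siglec15, known from osteoclasts, was at 0 in 3 libraries and at no more than 0.0148 CPM in the others, too low to be tested.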

How the data were processed

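Right hemispheres of 3 vehicle and 2 UMBO mice were profiled by bulk RNA-seq, with groups and replicate numbers taken from the sample labels. The authors mapped reads with STAR 2.7.2a to GRCm38 and deposited raw counts per gene, 1 table per library; the submitters' processing notes also name DESeq2. The annotation release and strand setting are not given in the sources used here. Gene symbols and positions were those of GENCODE M21 (55480 of 55573 identifiers). Counts were scaled by TMM, filtered with filterByExpr and tested in edgeR 4.0.16 under R 4.3.3 (glmQLFit and glmQLFTest, Benjamini-Hochberg adjustment over 23592 genes). Log2 CPM used a prior count of 2. The scripts were tested on simulated data. Counting error is small for Siglech and Cd33 and wider for the other Siglec genes, with as few as 19 reads in a library; nothing says that replicates share a litter or day, and p-values measure the spread between 5 mice. Alternatives were other scalings and filters, DESeq2 1.42.0, a replicate block, exon length and leaving out each library. Genes named were the 7 Siglec genes, Mag and Siglec15, the 3 smallest p of each pathway list, 4 direct signalling partners, and the 3 nearest patterns per gene (1 of them is not reported here); markers are given as sums, with single markers named after their values were seen. The members and lists were chosen with earlier results of these data known.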

Additional observations from a re-analysis of the deposited data

How the results depend on the processing

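Of 76 alternative fits of the 7 log2 fold changes, 71 kept the direction and the side of the adjusted threshold. Cd33 turned to -0.13 without UMBO replicate 1 (range over single libraries left out -0.13 to 0.52), and Siglecg to -0.22 without UMBO replicate 2 (-0.22 to 1.84). Cd22 ranged from 0.66 to 2.21 and passed the threshold without UMBO replicate 1, at 2.14 (adjusted p = 0.0422). Leaving out single libraries gave 0 to 1 Siglec genes past the threshold, 0 to 4543 of all genes, and 3 to 6 Siglec genes with both (or the remaining) UMBO libraries above the vehicle libraries, 6 without vehicle replicate 2 and 6 without UMBO replicate 1. With the replicate number as a block, vehicle replicate 3 adds nothing to the difference. Siglec1 was then 1.32 (edgeR adjusted p = 0.0238) and Cd22 1.40 (edgeR adjusted p = 0.0123), 2 of 7 Siglec genes beside 2337 (9.91%) of all tested genes. The same-numbered libraries deviated together (r across genes 0.45 and 0.76), but so did vehicle replicate 3 and UMBO replicate 1 (r 0.52). With 2 UMBO libraries the crossed values are mirrored by construction, and no label says that a number marks a pair. The DESeq2 Wald test called 40 of all genes. The cause of these changes was not tested. Siglecg was not tested where 1 CPM in 2 libraries was asked. With the longest transcript as length, Cd33 was 2.61 and Siglech 10.3 CPM per kilobase, and Cd22 came before Siglecf (0.682 against 0.623).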
